A study of Homo sapiens with 6 samples.

Results

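The subject is cassette exons that lie wholly within 5′ untranslated regions (5′ UTRs), the leader of a messenger RNA ahead of its start codon. They were taken from annotated skipped-exon events which the authors quantified from RNA sequencing of MDA-LM2, a breast cancer line selected from MDA-MB-231 for its metastasis to the lung. An exon was a member when it was at least 61 and under 500 nt long, matched exactly an exon of a protein-coding transcript wholly upstream of that transcript's start codon, and matched no exon that overlaps coding sequence in any transcript of GENCODE 29. Of 40658 distinct skipped exons, 3773 met this rule, in 2342 genes. Members were 61 to 484 nt long, with a median of 120 nt.

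The cells were transfected with siRNAs against SNRPA1 (siSNRPA1, 3 libraries), siRNAs against SNRPB (siSNRPB, 1 library) or control siRNA (siCtrl, 2 libraries), and RNA was taken after 48 h. All 3 groups share the cell line and the transfection, and the labels do not tie single siRNAs to libraries. The authors deposited 1 set of inclusion levels per group, called a pool below, so values come without replicates or SDs. Whether a pool holds the reads of every library of its group or of 1 library is not stated. Differences between pools have no replicate check, and the tests below speak for the reads of 2 pools rather than for the treatments.

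SNRPA1 encodes U2 A′, which belongs to the U2 small nuclear ribonucleoprotein (snRNP), the particle that binds the branch point of an intron. SNRPB encodes SmB/B′ of the protein ring shared by the spliceosomal snRNPs. Exons of a 5′ UTR encode no protein. Their inclusion changes the length and sequence of the leader that the scanning ribosome crosses, and an ATG within them can open a short upstream reading frame that is translated in place of, or before, the main one.

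The inclusion level is the authors' estimate of the fraction of transcripts that hold the exon, from 0 (always skipped) to 1 (always included), and each comes with an interval of unstated width. Informative reads fit 1 of the 2 forms alone, with the exon (inclusion reads) or without it (exclusion reads). The siSNRPA1 pool held 225805 informative reads over the members, the siSNRPB pool 99244 and the siCtrl pool 165024. At least 20 such reads were present for 1508 members in siSNRPA1, 918 in siSNRPB and 1335 in siCtrl, and 484 members had none in any pool. Reads that fit neither form made up a median of 83.1% of a member's reads in siSNRPA1, 76.3% in siSNRPB and 84.9% in siCtrl. Informative reads over SNRPA1 came to 28.9 per 1000000 in siSNRPA1, 404 in siSNRPB and 166 in siCtrl, and those over SNRPB to 747, 54.9 and 555 per 1000000 in the same 3 pools. Each target was thus lowest in the pool named for it. Of 10 mesenchymal marker genes 7 have an annotated event, and all 7 had at least 20 informative reads, with summed levels of 2734, 2807 and 2539 per 1000000 in siSNRPA1, siSNRPB and siCtrl. Of 10 epithelial and luminal markers 8 have an event and 4 reached 20 reads, with sums of 1005, 1085 and 1010 per 1000000, nearly all from the keratin gene KRT8, while the cadherin gene CDH1 stood at 1.12, 0 and 0.577. Markers of blood and endothelium summed to 5.45, 0 and 8.65 per 1000000.

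A small set of sequences shows what these exons carry. Each line below is 30 bases of a 5′ UTR exon that holds exactly 1 ATG, read 5′ to 3′ along the transcript from the GENCODE 29 transcripts (hg38), with that ATG in capitals. They come from exons whose inclusion differed between pools and that are described further on.
KLHL24, 91-nt exon, chr3:183636282-183636311, plus strand: gttctgtccgggaggaATGacggggtcaag
PRMT2, 109-nt exon, chr21:46636491-46636520, plus strand: aaagactggaagATGcagaccttggttcct
EVA1A, 88-nt exon, chr2:75526118-75526147, minus strand: aaaggaagcactATGagtcaatcattgggc
ZMAT3, 121-nt exon, chr3:179071331-179071360, minus strand: ccatccttcgtgATGgcatccataccgggt
PRDM8, 112-nt exon, chr4:80196095-80196124, plus strand: tcaaagctgggagaggatcaaactaacATG
STEAP2, 109-nt exon, chr7:90216561-90216590, plus strand: ggaaagaactgcATGcatattattcagcgt
SEPT2, 119-nt exon, chr2:241316456-241316485, plus strand: cccatcggctggATGccgtggataagcgag
INPP1, 144-nt exon, chr2:190348894-190348923, plus strand: agagcttacatcATGtggccgagtttatat

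In the annotated transcripts, the frames that these 8 ATGs open all close ahead of the start codon, after 2 codons in PRDM8 and after 84 codons in SEPT2. The PRDM8 ATG is made of the last 3 bases of its exon. Over all members, 2861 of 3773 (75.8%) hold at least 1 ATG, 2631 hold one whose frame closes before the start codon and 564 one whose frame overlaps it. Whether any of these frames is translated was not measured here.

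The members share a place in the gene and features of length. The exon is the second of its transcript in 73.6% of members, and the median distance from its end to the start codon is 53 nt of transcript. The median leader that holds the exon is 383 nt long. Members have a median GC content of 50.7%, the last base of the exon is G in 80.3%, and the introns beside them have median lengths of 2845 nt upstream and 3771 nt downstream. A transcript start is annotated within 496 members. Of all members, 724 overlap at least 1 other member as forms of an exon, and the members lie at 3376 separate loci.

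Most members with enough reads were either mostly included or mostly skipped. Of the 839 with at least 20 informative reads in every pool, 165 in siSNRPA1, 160 in siSNRPB and 181 in siCtrl had an inclusion level of 0.9 or more. The number at 0.1 or less was 325 in siSNRPA1, 326 in siSNRPB and 311 in siCtrl, and the median level was 0.24, 0.28 and 0.29 in those pools. The members with the most reads are examples. The 204-nt exon of DDX5, an RNA helicase, had 10555 inclusion reads in siSNRPA1, 4775 in siSNRPB and 6980 in siCtrl, with no exclusion read in any pool. EI24 (158-nt exon) and the cyclin-dependent kinase CDK4 (197-nt exon) likewise stood at 1.00 in all 3 pools. The 114-nt exon of HMGA1, a chromatin architectural protein, had levels of 0.25 in siSNRPA1, 0.33 in siSNRPB and 0.30 in siCtrl, although 2216 of its informative reads in siSNRPA1, 973 in siSNRPB and 2476 in siCtrl were inclusion reads against 4 exclusion reads in each pool. A transcript start lies within that exon, and the level draws on reads in the flanking exons as well.

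TCEAL9, also among the members with the most reads, fell in both knockdown pools. Its 79-nt exon (hg38 chr X, 103357083 to 103357161) had a level of 0.71 (interval by the authors 0.69 to 0.73) in siSNRPA1, 0.77 (0.74 to 0.79) in siSNRPB and 0.88 (0.86 to 0.90) in siCtrl. There were 1757 inclusion and 551 exclusion reads in siSNRPA1, 889 and 207 in siSNRPB, and 1447 and 149 in siCtrl. Inclusion reads were 76.1% of informative reads in siSNRPA1 (95% Wilson interval 74.3 to 77.8%), 81.1% in siSNRPB (78.7 to 83.3%) and 90.7% in siCtrl (89.1 to 92.0%). Both knockdown pools lay below siCtrl with no overlap of intervals, with Fisher's exact adjusted p = 5.73e-30 for siSNRPA1 and 1.41e-10 for siSNRPB. The siSNRPA1 pool was lower than the siSNRPB pool by a level of 0.06, under the 0.1 that a call needs. Skipping the exon shortens the annotated leader to 176 nt, against 255 nt with it.

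The first comparison set siSNRPA1 against siCtrl. Testing needed 20 or more informative reads per pool, with 5 or more of each kind over the pair. It passed when Fisher's exact test, adjusted over all tested exons of the whole table by Benjamini and Hochberg, gave a p under 0.05 and the inclusion level differed by at least 0.1 the same way. "Fell" and "rose" refer to this rule, and fewer cells using an exon and less use of it in each cell cannot be told apart in bulk RNA. Of 740 tested 5′ UTR exons, 85 fell (11.5%, in 76 genes) and 29 rose (3.92%, in 27 genes). Over all 6459 tested exons of the table, 12.8% fell and 4.18% rose, so the members' shares were near the background and are no result about 5′ UTR exons. Passing falls had a median of 0.21 and passing rises a median of 0.20, and the median difference over all tested members was −0.02, as it was over all exons.

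The largest fall in siSNRPA1 was in FAM131A. The 61-nt exon of this gene (chr3, 184337311 to 184337371) had an inclusion level of 0.20 (interval 0.12 to 0.31) in siSNRPA1, 0.44 (0.24 to 0.66) in siSNRPB and 0.94 (0.82 to 1.00) in siCtrl. It had 19 inclusion and 14 exclusion reads in siSNRPA1, 11 and 2 in siSNRPB, and 47 and 0 in siCtrl, with adjusted p = 1.35e-05 by Fisher's exact test in siSNRPA1. The siSNRPB pool was too shallow here for a test. The 121-nt exon of GAS2L3, which links microtubules and actin in dividing cells (chr12, 100591736 to 100591856), stood at 0.18 in siSNRPA1, 0.16 in siSNRPB and 0.78 in siCtrl. Its exclusion reads outnumbered inclusion reads 30 to 12 in siSNRPA1 and 13 to 4 in siSNRPB, while siCtrl had 6 exclusion and 46 inclusion reads (Fisher's exact adjusted p = 1.06e-07 in siSNRPA1).

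The 153-nt exon of NUMA1, which organises the poles of the mitotic spindle (chr11, 72068079 to 72068231), was at 0.31 in siSNRPA1, 0.20 in siSNRPB and 0.84 in siCtrl, from 22 inclusion and 14 exclusion reads, 8 and 7, and 49 and 1. A second, non-overlapping NUMA1 exon of 172 nt fell as well, to 0.22 in siSNRPA1 against 0.43 in siCtrl, but it has the same numbers of exclusion reads, so these falls are not independent. The 112-nt exon of PRDM8, of a family of zinc finger proteins with a histone methyltransferase-like domain, was at 0.29 in siSNRPA1, 0.05 in siSNRPB and 0.80 in siCtrl. None of its 13 informative reads in siSNRPB was an inclusion read, which is too few for a test, and the fall in siSNRPA1 had an exact adjusted p of 8.93e-06.

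EXO5, a single-strand DNA exonuclease, fell in both knockdown pools. Its 175-nt exon (chr1, 40509451 to 40509625) had levels of 0.49 (interval 0.40 to 0.58) in siSNRPA1, 0.58 (0.43 to 0.72) in siSNRPB and 0.93 (0.86 to 0.98) in siCtrl. Inclusion and exclusion reads were 73 and 37 in siSNRPA1, 30 and 9 in siSNRPB, and 120 and 4 in siCtrl, with exact adjusted p = 2.49e-08 in siSNRPA1 and 0.00232 in siSNRPB. The exon holds 4 ATGs, each with a frame that closes before the start codon, and the leader is 225 nt without it and 400 nt with it. The other large falls in siSNRPA1 were in IDNK, a gluconokinase (205 nt, 0.29 against 0.81 in siCtrl), NSDHL, a sterol dehydrogenase of cholesterol synthesis (67 nt, 0.16 against 0.65), and ZMAT3, a p53-induced zinc finger protein (121 nt, 0.35 against 0.79). Exact adjusted p-values were 0.00547 for IDNK, 0.00177 for NSDHL and 0.0264 for ZMAT3, and each had at most 42 informative reads in either of these pools.

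**Figure D1:**
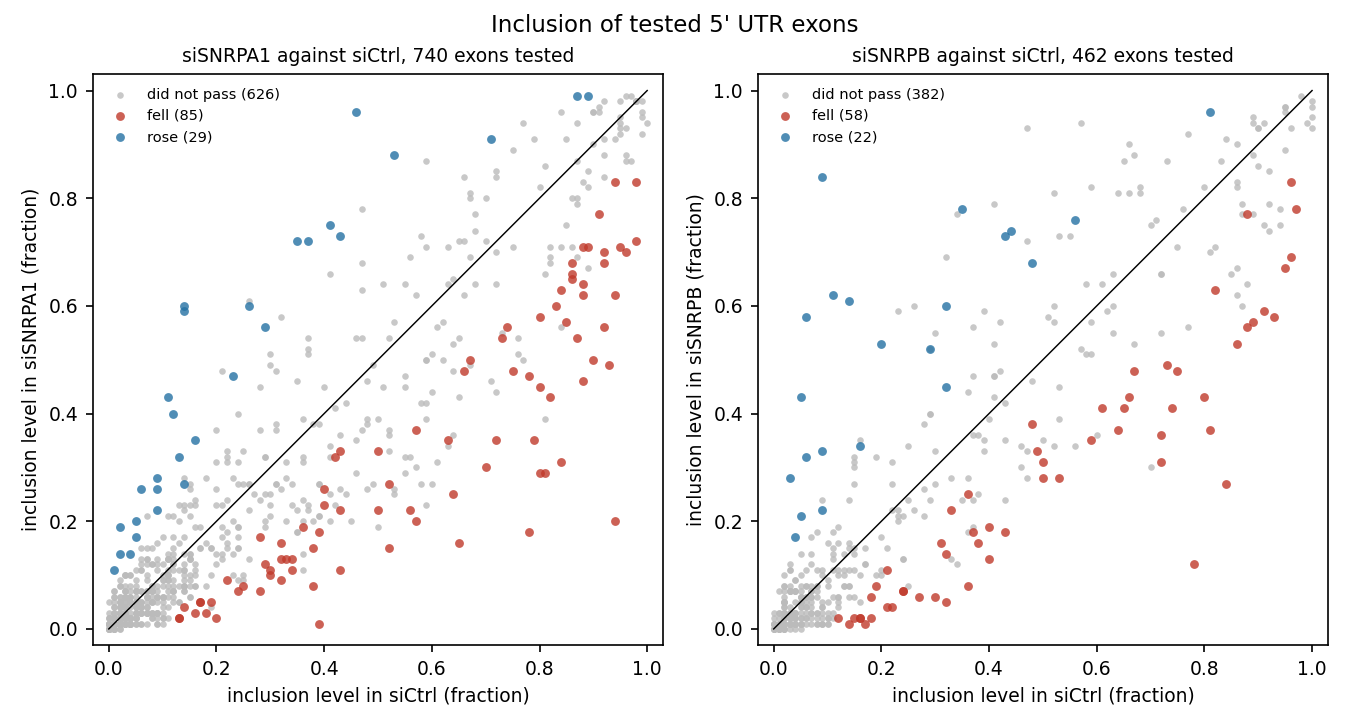
Inclusion level (fraction) of every tested 5′ UTR exon in a knockdown pool (vertical axis) against the siCtrl pool (horizontal axis), siSNRPA1 on the left and siSNRPB on the right, with points coloured by whether the exon fell, rose or did not pass. Of 740 exons 85 fell and 29 rose in siSNRPA1, and of 462 exons 58 fell and 22 rose in siSNRPB, and most points lie near the line of equal levels.

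The rises in siSNRPA1 were fewer. The 204-nt exon of NME6, of the nucleoside diphosphate kinase family (chr3, 48300431 to 48300634), reached 0.96 (interval 0.85 to 1.00) in siSNRPA1 and 0.73 (0.40 to 0.94) in siSNRPB, against 0.46 (0.27 to 0.65) in siCtrl. All 53 informative reads in siSNRPA1 and all 11 in siSNRPB were inclusion reads, against 20 of 28 in siCtrl (exact adjusted p = 0.001 in siSNRPA1). The leader holding the exon is 238 nt long, against 34 nt without it. STEAP2, a metalloreductase, had levels of 0.60 in siSNRPA1, 0.87 in siSNRPB and 0.14 in siCtrl for its 109-nt exon, from 28 inclusion and 10 exclusion reads, 8 and 0, and 6 and 23. The siSNRPB pool had too few reads for a test there, and the rise in siSNRPA1 had an exact adjusted p of 3.03e-04.

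HDLBP, which encodes the RNA-binding protein vigilin, and ANKRD13D rose in both knockdown pools. The 125-nt HDLBP exon was at 0.59 in siSNRPA1, 0.61 in siSNRPB and 0.14 in siCtrl, and 30 of 41, 17 of 23 and 5 of 24 informative reads were inclusion reads in those pools. Exact adjusted p-values were 8.11e-04 in siSNRPA1 and 0.00238 in siSNRPB. The 137-nt ANKRD13D exon was at 0.72 in siSNRPA1, 0.78 in siSNRPB and 0.35 in siCtrl, and a transcript start lies within it. TLR4, the receptor for bacterial lipopolysaccharide, had a level of 0.72 (interval 0.65 to 0.79) for its 120-nt exon in siSNRPA1, 0.56 (0.46 to 0.67) in siSNRPB and 0.37 (0.28 to 0.49) in siCtrl. It passed in siSNRPA1 (189 inclusion and 37 exclusion reads against 38 and 31 in siCtrl, exact adjusted p = 5.85e-05) and not in siSNRPB (63 and 31, adjusted p = 0.239). ELOC, which encodes elongin C, rose to 0.75 in siSNRPA1 against 0.41 in siCtrl and had 0.53 in siSNRPB, where it did not pass.

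The 119-nt exon of SEPT2, a septin GTPase, within which a transcript start is annotated, rose in siSNRPA1 alone among the knockdown pools. Its level was 0.88 (interval 0.75 to 0.97) in siSNRPA1, 0.45 (0.30 to 0.62) in siSNRPB and 0.53 (0.42 to 0.64) in siCtrl, and 2 of 132, 6 of 34 and 16 of 94 informative reads were exclusion reads in those pools. The direct comparison of siSNRPA1 with siSNRPB passed too (difference 0.43, exact adjusted p = 0.00688). A second SEPT2 exon of 101 nt had levels of 0.41 in siSNRPA1, 0.57 in siSNRPB and 0.42 in siCtrl and passed in no comparison.

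The comparison of siSNRPB with siCtrl rested on fewer reads. Of 462 tested 5′ UTR exons, 58 fell (12.6%, in 53 genes) and 22 rose (4.76%, in 21 genes), against 16.7% and 4.62% of all 4244 tested exons. The share that rose was near the background and the share that fell was under it. Members had a median of 51.5 informative reads in the shallower of the 2 pools and a median siCtrl level of 0.15, against 95 reads and a level of 0.77 for coding exons, 22.3% of which fell. The part of depth and of the starting level in that gap was not tested. Passing falls had a median of 0.21 and passing rises a median of 0.255.

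DAB2, an endocytic adaptor protein, had the largest fall in siSNRPB. Its 165-nt exon (chr5, 39418181 to 39418345) was at 0.47 (interval 0.34 to 0.60) in siSNRPA1, 0.12 (0.05 to 0.23) in siSNRPB and 0.78 (0.57 to 0.94) in siCtrl. Inclusion and exclusion reads were 39 and 11 in siSNRPA1, 5 and 15 in siSNRPB, and 39 and 1 in siCtrl, with exact adjusted p = 0.0359 in siSNRPA1 and 1.52e-07 in siSNRPB. The pools stood in the order siSNRPB, siSNRPA1, siCtrl, and the step between the knockdowns passed as well (exact adjusted p = 8.40e-04). PRMT2, a protein arginine methyltransferase, showed the same order with more reads. Its 109-nt exon was at 0.56 (0.51 to 0.61) in siSNRPA1, 0.41 (0.33 to 0.48) in siSNRPB and 0.74 (0.69 to 0.80) in siCtrl, from 267 inclusion and 120 exclusion reads, 98 and 80, and 278 and 56. The exact adjusted p-values were 1.48e-04 for siSNRPA1, 1.18e-09 for siSNRPB and 0.0102 between the knockdowns. The ATG of this exon, printed above, opens a frame that closes after 20 codons.

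RAB9A, IFT88, KLHL24 and EVA1A were further large falls in siSNRPB. RAB9A, a small GTPase of transport from late endosomes to the Golgi, had 0.44 in siSNRPA1, 0.31 in siSNRPB and 0.72 in siCtrl for its 168-nt exon, and passed in siSNRPB (20 inclusion and 14 exclusion reads against 50 and 3, exact adjusted p = 9.75e-04) but not in siSNRPA1 (48 and 9, adjusted p = 0.23). IFT88, of intraflagellar transport, had 0.45 in siSNRPA1, 0.43 in siSNRPB and 0.80 in siCtrl for its 328-nt exon and fell in both. KLHL24, a substrate adaptor of a cullin ubiquitin ligase, had 0.35, 0.36 and 0.72 in the same 3 pools for its 91-nt exon and fell in both. For EVA1A, which takes part in autophagy and cell death, the 88-nt exon was at 0.33 in siSNRPA1, 0.37 in siSNRPB and 0.81 in siCtrl. It had 18 inclusion and 4 exclusion reads in siSNRPB and 61 and 1 in siCtrl (exact adjusted p = 0.0428). In siSNRPA1 it had 25 and 2, too few exclusion reads for a test against siCtrl. Another, non-overlapping EVA1A exon of 123 nt fell in both pools, to 0.23 in siSNRPA1 and 0.13 in siSNRPB against 0.40 in siCtrl. The 88-nt exon is measured up to a downstream exon that is also 123 nt long. The 2 EVA1A exons may thus share reads, and their falls are not taken as independent.

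The largest rises in siSNRPB outside the genes above and AURKA were in RPL17, FOXN3, STIL, FANCI and PSMA1. FOXN3, a forkhead transcription factor, had a level of 0.20 (interval 0.13 to 0.28) in siSNRPA1, 0.43 (0.28 to 0.60) in siSNRPB and 0.05 (0.01 to 0.11) in siCtrl for its 103-nt exon. Inclusion reads were 29 of 39 informative reads in siSNRPA1, 28 of 30 in siSNRPB and 3 of 23 in siCtrl, and it rose in both (exact adjusted p = 7.07e-05 and 6.86e-08). PSMA1, an alpha subunit of the proteasome, stood at 0.73 in siSNRPA1, 0.73 in siSNRPB and 0.43 in siCtrl for its 307-nt exon, within which a transcript start is annotated. STIL, needed for centriole duplication, stood at 0.31 in siSNRPA1, 0.53 in siSNRPB and 0.20 in siCtrl (209 nt). A transcript start lies within this exon, and its inclusion and exclusion reads were 69 and 17, 36 and 0, and 31 and 13 in those pools. FANCI, of the Fanconi anaemia DNA repair pathway, stood at 0.42, 0.74 and 0.44 (84 nt) in the same pools. STIL and FANCI each passed in siSNRPB and not in siSNRPA1. Each also passed between the knockdowns, with differences of −0.22 for STIL and −0.32 for FANCI. Another 2 were forms of 1 exon of the ribosomal protein gene RPL17 that rose in both pools, the 98-nt form to 0.43 in siSNRPA1 and 0.62 in siSNRPB against 0.11 in siCtrl. RPL17 has near-identical copies, a transcript start lies within the exon and it overlaps an exon on the other strand, so its reads are uncertain.

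**Figure D2:**
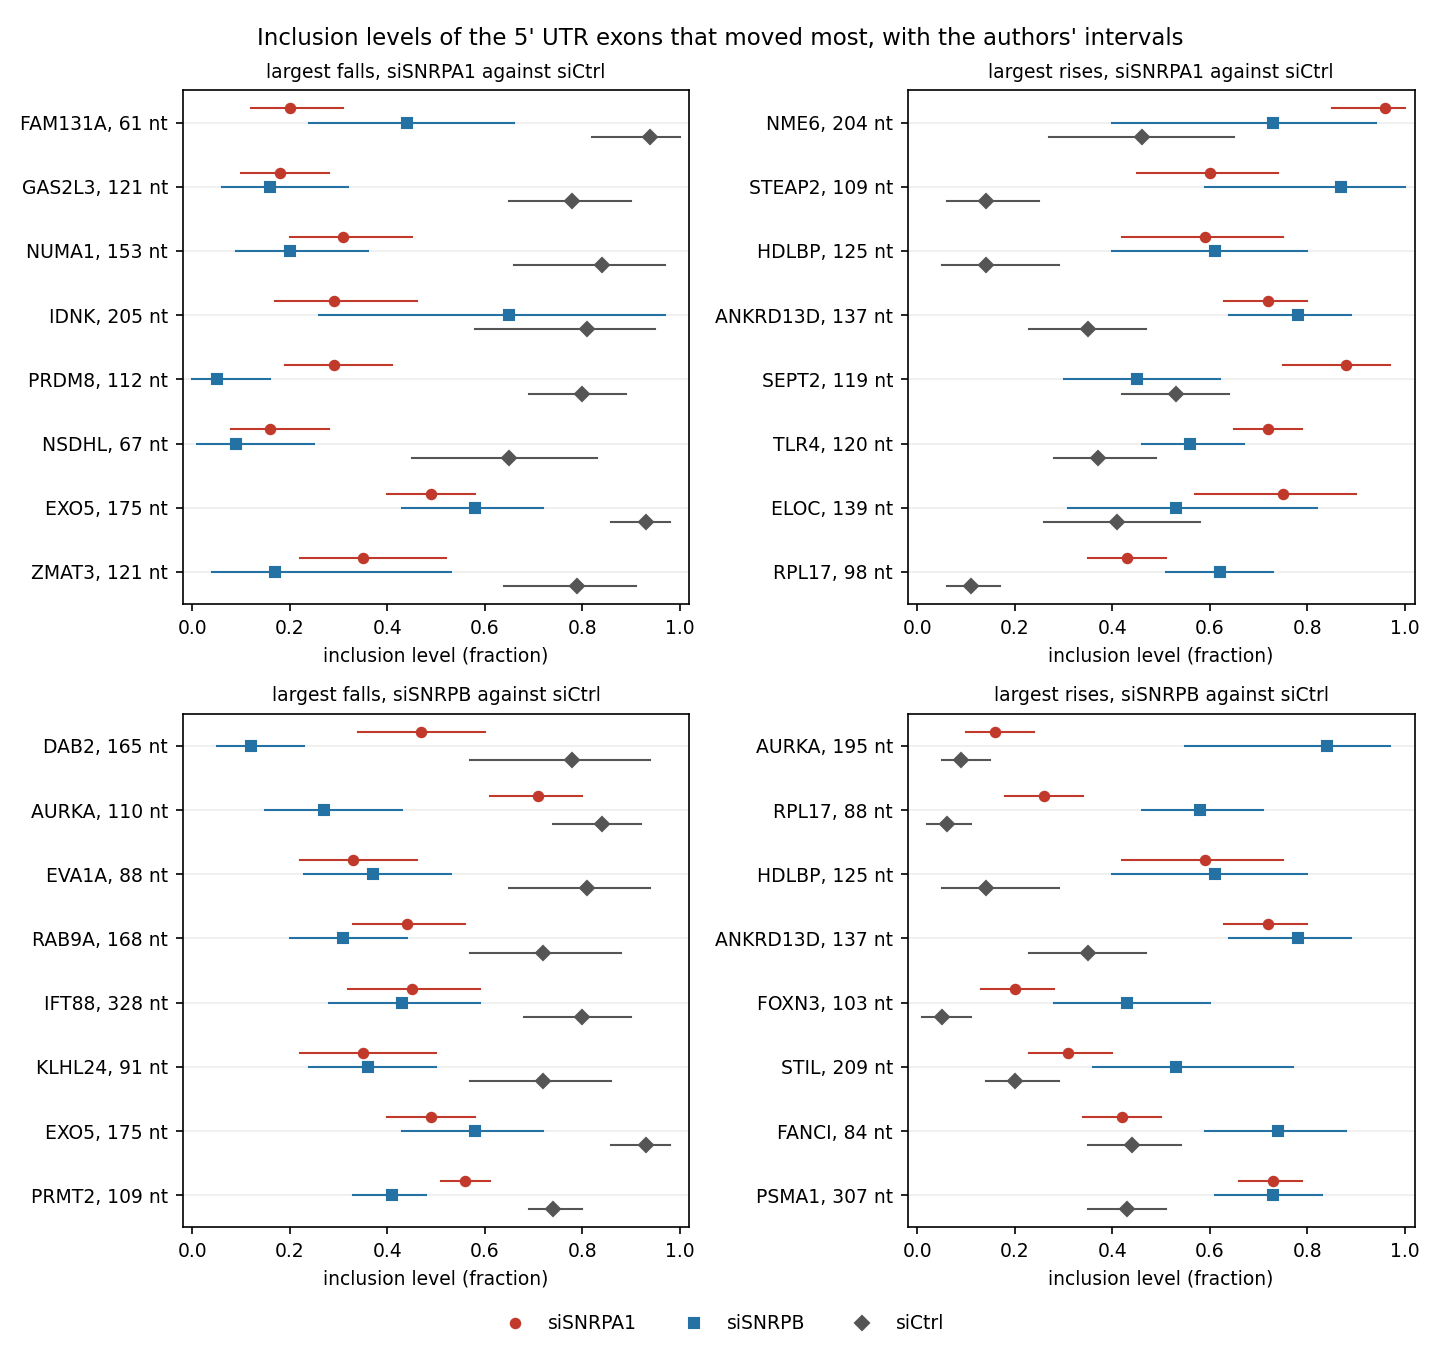
Inclusion levels (fraction, points) with the authors' intervals (lines) in siSNRPA1, siSNRPB and siCtrl for the 8 largest falls and 8 largest rises per knockdown among passing 5′ UTR exons, 1 exon per gene. HDLBP, which rose in both, lies above siCtrl in each knockdown pool (0.59, 0.61 and 0.14), and SEPT2 lies above it in siSNRPA1 (0.88, 0.45 and 0.53).

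The leader of AURKA, a kinase of centrosome maturation and spindle assembly, held 3 such exons, which differed between pools in opposite ways. The 110-nt exon, first in the order of transcription, was at 0.71 (interval 0.61 to 0.80) in siSNRPA1, 0.27 (0.15 to 0.43) in siSNRPB and 0.84 (0.74 to 0.92) in siCtrl. It had 95 inclusion and 22 exclusion reads in siSNRPA1, 10 and 12 in siSNRPB, and 80 and 10 in siCtrl, and it fell in siSNRPB only (exact adjusted p = 3.10e-04, against 0.293 in siSNRPA1). The 98-nt exon was at 0.37 (0.26 to 0.49) in siSNRPA1, 0.94 (0.81 to 0.99) in siSNRPB and 0.57 (0.44 to 0.71) in siCtrl, from 37 inclusion reads, 41 and 53. The 195-nt exon was at 0.16 (0.10 to 0.24) in siSNRPA1, 0.84 (0.55 to 0.97) in siSNRPB and 0.09 (0.05 to 0.15) in siCtrl, from 23 inclusion reads, 23 and 12.

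Both the 98-nt and the 195-nt exon are measured between the 110-nt exon and the same downstream exon, and their exclusion reads were the same numbers, 19 in siSNRPA1, 0 in siSNRPB and 8 in siCtrl for the 195-nt and the 98-nt exon alike. The 110-nt exon is measured up to that same downstream exon. A read that joins the 110-nt exon to it is an inclusion read for the 110-nt exon and an exclusion read for the 98-nt and 195-nt exons. The 3 exons are therefore not independent of each other, and their opposite differences are not separate results. The 195-nt exon rose in siSNRPB (exact adjusted p = 0.00442), and the 98-nt exon had a difference of 0.37 there that did not pass (adjusted p = 0.0524). In siSNRPA1 the 98-nt exon fell (adjusted p = 0.0326 by the exact test), with an authors' Bayes factor of 2.25. All 3 differed between the knockdowns: siSNRPA1 was lower by 0.68 for the 195-nt exon and by 0.57 for the 98-nt exon, and higher by 0.44 for the 110-nt exon, with exact adjusted p-values of 5.80e-04, 1.72e-04 and 0.00613.

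**Figure D3:**
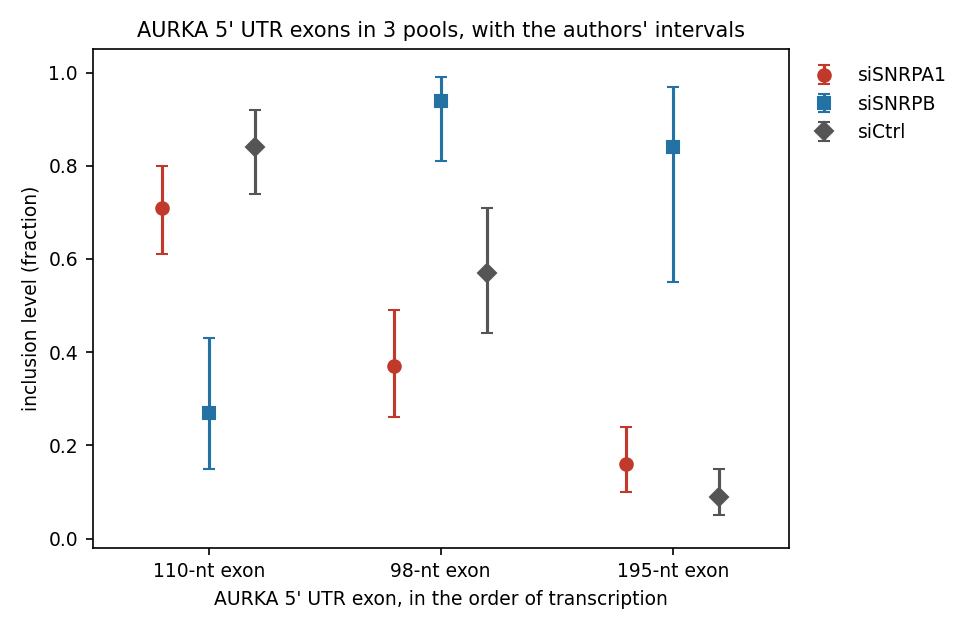
Inclusion levels (fraction) of the 3 AURKA 5′ UTR exons, in the order of transcription, in siSNRPA1, siSNRPB and siCtrl, with the authors' intervals as bars. The siSNRPB pool is lowest for the 110-nt exon (0.27) and highest for the 98-nt (0.94) and 195-nt exons (0.84).

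Other leaders also held several exons that passed. In siSNRPA1, 2 non-overlapping exons fell in ATG13, of the autophagy initiation complex (116 nt to 0.25 against 0.64 in siCtrl, and 137 nt to 0.01 against 0.39), and in PPP6R3, a regulatory subunit of protein phosphatase 6 (105 nt to 0.22 against 0.56, and 139 nt to 0.11 against 0.30). The PPP6R3 exons have the same numbers of exclusion reads and are not independent. DAG1, which encodes dystroglycan, a receptor for the extracellular matrix, has 4 measured leader exons. Its 151-nt, 120-nt and 162-nt exons have the same numbers of exclusion reads, 35 in siSNRPA1, 29 in siSNRPB and 10 in siCtrl, and are not independent of each other. Its 151-nt exon fell in both pools, to 0.10 in siSNRPA1 and 0.06 in siSNRPB against 0.30 in siCtrl, and its 120-nt exon fell in siSNRPB, to 0.11 against 0.21, with 0.13 in siSNRPA1. The 85-nt exon of DAG1 had levels of 0.64, 0.73 and 0.55 in siSNRPA1, siSNRPB and siCtrl and the 162-nt exon 0.36, 0.35 and 0.43, and neither passed. PTK2, which encodes focal adhesion kinase, had 2 forms of 1 exon that fell in siSNRPA1, the 188-nt form to 0.30 against 0.70 in siCtrl and the 89-nt form to 0.54 against 0.87. Their shares of inclusion reads differed less, at 77.0% against 92.3% and 79.1% against 93.4%. These forms share their exclusion reads, and in siSNRPB they stood at 0.30 and 0.60 without passing (exact adjusted p = 0.0723 and 0.08), although the authors' Bayes factor was 1e+12 for the 188-nt form and 2693 for the 89-nt form there. A separate PTK2 exon of 78 nt has the same numbers of exclusion reads. It was at 0.07 in siSNRPA1, 0.07 in siSNRPB and 0.03 in siCtrl, did not pass in siSNRPA1 and had too few reads for a test in siSNRPB. The 203-nt exon of RECQL, a DNA helicase, was at 0.97 in siSNRPA1, 0.88 in siSNRPB and 0.97 in siCtrl. It had too few exclusion reads for a test against siCtrl and did not pass between the knockdowns.

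The direct comparison of siSNRPA1 with siSNRPB used no siCtrl reads. Of 525 tested members, 35 were lower in siSNRPA1 (6.67%) and 41 higher (7.81%), against 6.38% and 8.28% of all 5082 tested exons, with a median difference of 0. Both shares were near the background. The 123-nt exon of FRYL was at 0.18 (interval 0.10 to 0.28) in siSNRPA1, 0.94 (0.84 to 0.99) in siSNRPB and 0.39 (0.26 to 0.54) in siCtrl, from 14 inclusion and 8 exclusion reads in siSNRPA1 and 54 and 0 in siSNRPB (exact adjusted p = 2.72e-04). SEC11A, a catalytic subunit of the signal peptidase, was at 0.26 (0.21 to 0.31) in siSNRPA1, 0.60 (0.54 to 0.66) in siSNRPB and 0.32 (0.27 to 0.38) in siCtrl for its 136-nt exon. It had 98 inclusion and 130 exclusion reads in siSNRPA1, 185 and 76 in siSNRPB and 116 and 145 in siCtrl, and siSNRPB stood apart from both other pools (exact adjusted p = 5.06e-08 from siSNRPA1 and 5.54e-08 from siCtrl). FAM210A (140 nt, 0.34 in siSNRPA1 and 0.79 in siSNRPB) and YY1AP1 (75 nt, 0.36 and 0.81) were lower in siSNRPA1 as well, at adjusted p = 0.00894 and 0.0489 by the exact test. The YY1AP1 exon holds an annotated transcript start.

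In the other direction, the 166-nt exon of TTC39B was at 0.76 in siSNRPA1, 0.17 in siSNRPB and 0.24 in siCtrl, and 21 of 21, 6 of 21 and 4 of 10 informative reads were inclusion reads. The 194-nt exon of the zinc finger gene ZNF417 was at 0.48 in siSNRPA1, 0.04 in siSNRPB and 0.21 in siCtrl, and it fell in siSNRPB against siCtrl (1 inclusion and 28 exclusion reads against 10 and 12). Between the knockdowns, exact adjusted p-values were 3.01e-05 for TTC39B and 3.23e-08 for ZNF417. RNF182, a RING-type ubiquitin ligase, was at 0.92 in siSNRPA1, 0.49 in siSNRPB and 0.59 in siCtrl for its 155-nt exon (adjusted p = 0.00315 between the knockdowns by the exact test). Its inclusion and exclusion reads were 50 and 0 in siSNRPA1, 15 and 6 in siSNRPB, and 17 and 0 in siCtrl. By reads siCtrl was thus like siSNRPA1, although its level was nearer to siSNRPB, and its 17 informative reads were too few for a test.

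Both knockdown comparisons share the siCtrl reads, so their calls are given side by side and not as an overlap result. The same counts over all exons of the table are not given here, so these are no result about 5′ UTR exons. Of 445 members tested in both, 22 fell in both, 7 rose in both, 25 fell and 11 rose in siSNRPA1 only, 33 fell and 14 rose in siSNRPB only, and 332 passed in neither. A single exon, in INPP1, which encodes inositol polyphosphate 1-phosphatase, fell in siSNRPA1 and rose in siSNRPB. Its 144-nt exon (chr2, 190348888 to 190349031) was at 0.13 (interval 0.09 to 0.19) in siSNRPA1, 0.45 (0.33 to 0.59) in siSNRPB and 0.32 (0.25 to 0.41) in siCtrl. Inclusion and exclusion reads were 30 and 59 in siSNRPA1, 41 and 5 in siSNRPB, and 49 and 36 in siCtrl. Against siCtrl the exact adjusted p was 0.0116 in siSNRPA1 and 0.00108 in siSNRPB, and the authors' Bayes factor was 176 in siSNRPA1 and 0.66 in siSNRPB.

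Grouped by function, the passing exons were spread over most of 14 lists of genes matched by symbol, with 447 of the 740 exons tested in siSNRPA1 in no list. Matching by symbol misses genes, among them NSDHL, EXO5, GAS2L3 and STIL described above, so the counts cover the listed genes only. Over all tested exons 12.8% fell and 4.18% rose in siSNRPA1, and 16.7% fell and 4.62% rose in siSNRPB. Of 36 tested exons of kinase and signalling genes 6 fell and 3 rose in siSNRPA1, and of 26 tested 4 fell and none rose in siSNRPB. The falls included PTK2 and the kinase gene PAK4, whose 73-nt exon was at 0.54 in siSNRPA1 and 0.49 in siSNRPB against 0.73 in siCtrl. Of 25 exons of cell cycle and mitosis genes 4 fell and 1 rose in siSNRPA1, and of 14, 4 fell and 1 rose in siSNRPB. These included NUMA1, AURKA, SMC6, a subunit of a chromosome maintenance complex (87 nt, 0.16, 0.14 and 0.32 in siSNRPA1, siSNRPB and siCtrl), and AURKB, a second mitotic Aurora kinase (102 nt, 0.08, 0.01 and 0.14, a fall in siSNRPB). The pattern of symbols also caught CDC42SE1, a binding partner of the GTPase CDC42, among the falls in siSNRPB.

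Zinc finger transcription factors had 8 falls and 1 rise among 29 exons in siSNRPA1 and 5 falls and 1 rise among 20 in siSNRPB, against 12.8% and 4.18% of all exons in siSNRPA1 and 16.7% and 4.62% in siSNRPB. The median difference was −0.10 in each, against −0.02 and −0.01 over all exons. The lists were chosen with earlier results known and the count is small, so this carries no test. ZFX, a transcriptional activator (111 nt), was at 0.43 in siSNRPA1, 0.54 in siSNRPB and 0.82 in siCtrl, and passed in siSNRPA1. The 74-nt exon of ZNF146 fell in both, to 0.70 in siSNRPA1 and 0.83 in siSNRPB against 0.96 in siCtrl, and the 90-nt exon of ZNF148 to 0.22 and 0.28 against 0.50. GATAD2A, also in this list by its symbol, encodes a subunit of a chromatin remodelling complex, and its 89-nt exon fell to 0.09 in siSNRPA1 and 0.04 in siSNRPB against 0.22 in siCtrl.

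The other lists are also read against falls in 12.8% of all tested exons in siSNRPA1 and 16.7% in siSNRPB. In these, 3 of 31 cytoskeleton and adhesion exons fell and 2 rose in siSNRPA1, and 5 of 25 fell and none rose in siSNRPB, with PTK2, DAG1 and SEPT2 among them. The ubiquitin system had 3 falls and 2 rises among 34 exons in siSNRPA1 and 2 falls and 1 rise among 19 in siSNRPB, with KLHL24 falling and PSMA1 rising in both. The DNA repair and replication list, which does not include EXO5, had 2 falls among 11 in siSNRPA1, and 2 falls and 1 rise among 8 in siSNRPB. They included the 178-nt exon of TOP1MT, a mitochondrial topoisomerase, at 0.11 in siSNRPA1, 0.24 in siSNRPB and 0.43 in siCtrl, and the 108-nt exon of EXO1, a mismatch repair exonuclease, at 0.05, 0.01 and 0.17. None of 28 exons of RNA processing genes passed in siSNRPA1, 1 of 19 fell in siSNRPB and 1 rose, the 128-nt exon of CNOT1, the scaffold of a deadenylase complex, at 0.10 in siSNRPA1, 0.28 in siSNRPB and 0.03 in siCtrl.

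The remaining lists had few calls, against 12.8% of all tested exons that fell and 4.18% that rose in siSNRPA1 and 16.7% and 4.62% in siSNRPB. Membrane trafficking genes had 2 falls and 2 rises among 21 exons in siSNRPA1 and 2 falls and 1 rise among 12 in siSNRPB, ATG13, RAB9A and SEC11A included. Mitochondrial genes had 1 fall and 1 rise among 20 in siSNRPA1, the fall being a 67-nt exon of the mitochondrial ribosomal protein gene MRPL55 (0.57 in siSNRPA1, 0.37 in siSNRPB and 0.85 in siCtrl), and no fall and 1 rise among 14 in siSNRPB. The MRPL55 exon holds an annotated transcript start. Transporters and ATPases had 1 fall among 24 in siSNRPA1 and 2 falls among 12 in siSNRPB. One of the falls in siSNRPB was the 73-nt exon of TMEM51 at 0.38, 0.16 and 0.38 in siSNRPA1, siSNRPB and siCtrl. The symbol pattern of this list takes in every gene named TMEM, transporter or not, and so TMEM51 and TMEM263, the fall in siSNRPA1. Ribosome and translation genes had 2 falls and 2 rises among 20 in siSNRPA1 and 2 rises among 15 in siSNRPB, all the rises being forms of the RPL17 exon. Chromatin and other transcription factors had 1 fall and 1 rise among 17 in siSNRPA1 and 2 rises among 12 in siSNRPB. No exon passed among 5 of apoptosis and stress genes in either comparison, nor among 2 of the lipid and sterol list in siSNRPA1 and 1 in siSNRPB, a list whose symbols do not include NSDHL, which fell in siSNRPA1.

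Set beside other classes of exon, 5′ UTR members lay between partly coding and coding exons in the share that fell. In siSNRPA1 the share of tested exons that fell was 11.5% for members, 7.23% for partly coding, 15.5% for coding and 9.50% for exons of noncoding transcripts, and in siSNRPB it was 12.6%, 10.3%, 22.3% and 12.5%. The shares that rose were closer, between 3.92 and 4.51% in siSNRPA1 and between 3.75 and 4.76% in siSNRPB. Among members the share that fell was 17.2% for exons of up to 100 nt, 11.2% for those over 100 and up to 150 nt and 8.19% for longer ones in siSNRPA1, and 18.6%, 11.5% and 9.84% in siSNRPB. Members with a transcript start inside rose in 10 of 95 cases in siSNRPA1 and 6 of 66 in siSNRPB, against 19 of 645 and 16 of 396 of those without. Members without an ATG fell in 26 of 183 cases in siSNRPA1 and 15 of 111 in siSNRPB, those with 1 in 26 of 195 and 16 of 118, and those with 2 or more in 33 of 362 and 27 of 233. These splits are descriptions over exons of the same pools, and no test of them was made.

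**Figure D4:**
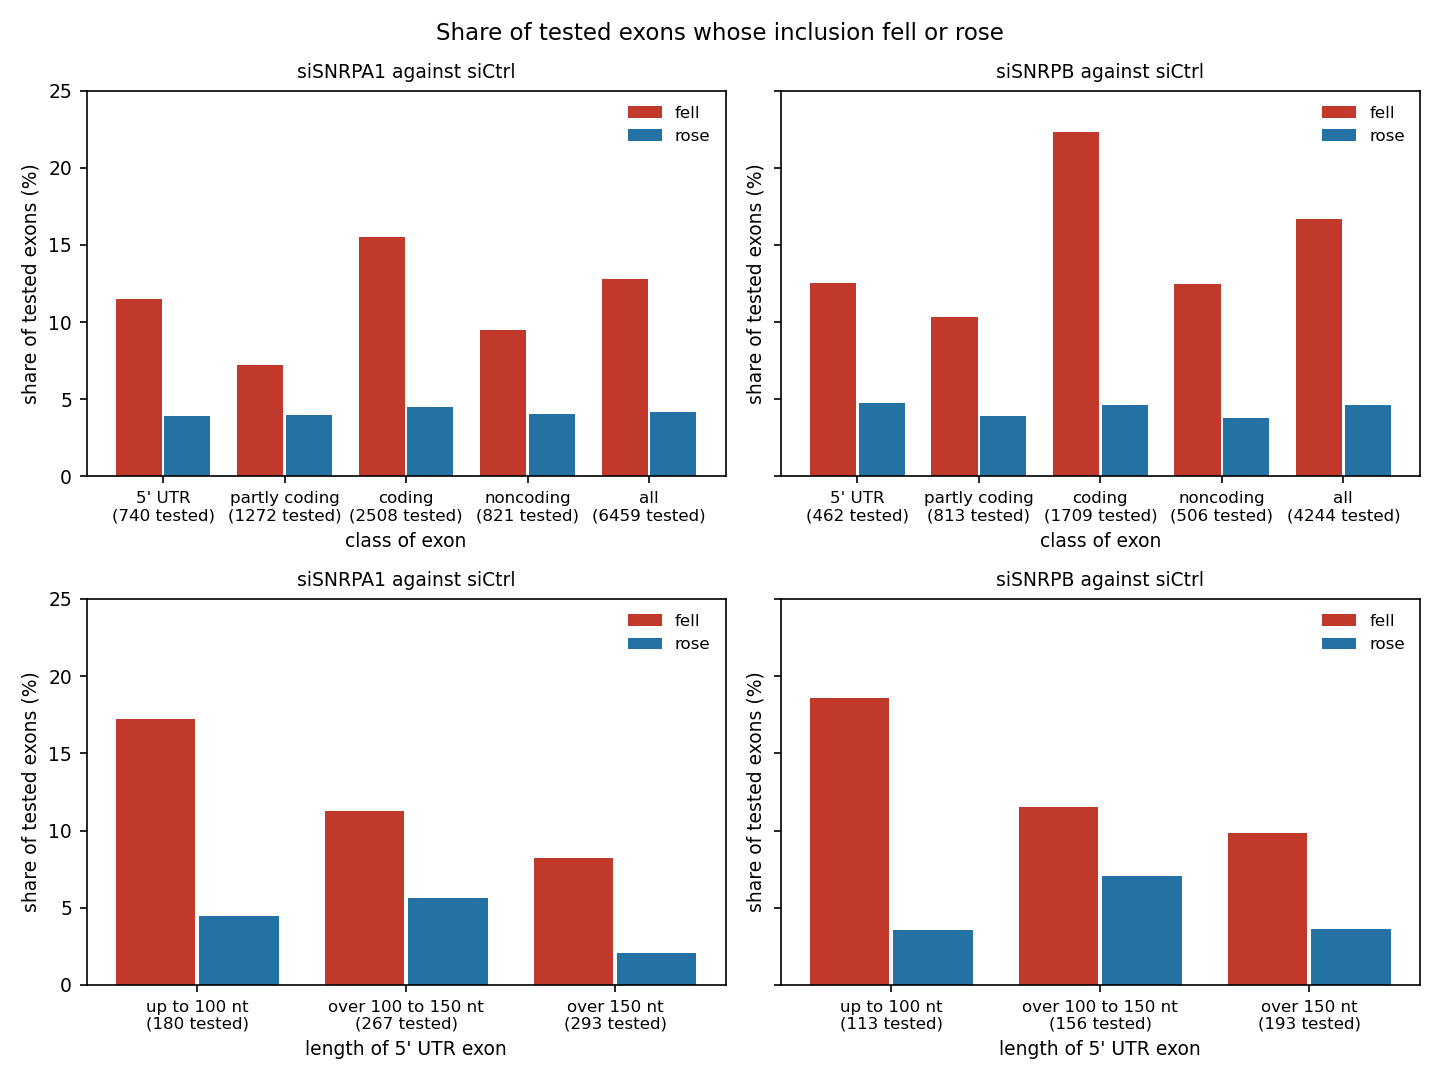
Share of tested exons (percent) whose inclusion fell or rose, by class of exon (top) and by length of the 5′ UTR exon (bottom), for siSNRPA1 against siCtrl (left) and siSNRPB against siCtrl (right). For 5′ UTR exons 11.5% fell in siSNRPA1 and 12.6% in siSNRPB, and the share that fell is highest for exons of up to 100 nt (17.2% and 18.6%).

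Some 5′ UTR exons hold stretches of the Alu consensus. Alu elements are short retrotransposons and a known source of exons in primate transcripts, and 2 stretches of 9 bases of their consensus, GTAATCCCA and GGAGTGCAG, were searched on both strands, a search chosen after the data were seen. At least 1 of them occurred in 378 of 3773 members (10.0%), in 1.82% of coding, 7.31% of partly coding and 8.92% of noncoding skipped exons. Members with such a stretch fell in 5 of 90 cases and rose in 3 in siSNRPA1, and fell in 3 of 48 and rose in 3 in siSNRPB. Members without one fell in 80 of 650 cases and rose in 26 in siSNRPA1, and fell in 55 of 414 and rose in 19 in siSNRPB. Over all tested exons 12.8% fell and 4.18% rose in siSNRPA1, and 16.7% and 4.62% in siSNRPB. Tested members with such a stretch had a lower median siCtrl level, 0.10 against 0.16 in the siSNRPA1 comparison and 0.105 against 0.155 in the siSNRPB comparison. The part of that starting level in these counts was not tested. Between the knockdowns, 6 of 58 members with such a stretch were lower in siSNRPA1 and 3 higher, against 29 and 38 of 467 without one. Of all tested exons 6.38% were lower there and 8.28% higher. The exons with such a stretch include the 110-nt and 98-nt exons of AURKA, the DAG1 120-nt exon and the STIL exon. Reads of repeats can map to many places, the part of this in the values of these exons was not tested, and how the authors treated such reads is not stated in the labels or headers.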

How the data were processed

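RNA sequencing libraries of siSNRPA1, siSNRPB and siCtrl cells were made with a stranded total RNA kit, per the labels' protocols. The submitters' processing notes name STAR 2.7 and hg38. Per the file headers the values are MISO skipped-exon summaries. For the MISO version and settings, the way libraries were combined per group and the strand setting, nothing is stated in the sources used here. The authors deposited, per pool, the inclusion level as a fraction rounded to 2 decimals, the bounds of its interval, and reads per class as text from which informative reads were taken. The authors also deposited, for each knockdown, the difference to siCtrl as a signed score and a Bayes factor, which is a ratio of evidence. The deposited differences equalled those of the summaries, within 0.005, in 44653 of 44653 and 38112 of 38112 events for siSNRPA1 and siSNRPB.

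Each exon was represented by its deepest event, counted in informative reads of all pools. Of 3773 members, 787 were tested in at least 1 comparison and 422 in all 3. Two-sided Fisher's exact tests on inclusion and exclusion reads were adjusted over all tested exons of the table. No molecular identifiers are described, so tests and intervals cover counting error only. Leader lengths and ATG frames came from the matched GENCODE 29 transcript, whose symbols are used throughout. The procedure was tested on simulated data. Python 3.11.15, scipy 1.17.1, numpy 2.4.6 and pandas 2.3.3 were used.

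Named exons were the 8 largest falls and rises per knockdown, the 5 largest differences each way between knockdowns, the 6 members with the most reads (1 of them is not reported here), the largest passing exon per gene list, exons with opposite calls, and exons of 6 genes named in earlier results. Exons of ATG13, PPP6R3, PAK4, SMC6, AURKB, CDC42SE1, ZNF146, ZNF148, GATAD2A, EXO1, the 123-nt EVA1A exon and the 172-nt NUMA1 exon were named after their values were seen. Members, lists and tests were chosen with earlier results of these data known.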

Additional observations from a re-analysis of the deposited data

Results flagged for a closer look

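The 144-nt exon of INPP1 was the one 5′ UTR exon that passed in opposite directions in the 2 knockdowns, and the difference between the knockdowns was itself tested. Its inclusion level differed from siCtrl by −0.19 in siSNRPA1 and by 0.13 in siSNRPB. Between siSNRPA1 and siSNRPB the difference was −0.32 (Fisher's exact adjusted p = 4.36e-08). The authors' Bayes factor was 176 for siSNRPA1 and 0.66 for siSNRPB, where the authors' intervals of siSNRPB and siCtrl overlap, so the rise in siSNRPB rests on the read counts alone. With read counts divided by 2, neither difference from siCtrl passed, and the difference between the knockdowns did. With 1 pool per group there is no replicate check of this pattern, and no group has the 4 values that a screen for outlying samples needs.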

How the results depend on the processing

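No paired analysis was possible because 1 set of values is deposited per group and its columns carry no replicate numbers, and for the same reason no library could be left out. The pools limit depth: 422 of 3773 exons were tested in all 3 comparisons. Some alternatives test fewer or more exons, so the number tested is given with the counts. In siSNRPA1 against siCtrl, 85 of 740 tested exons fell and 29 rose. With at least 50 informative reads these counts were 46 and 13 of 420. They were 52 and 15 of 740 with a difference of at least 0.2, and 21 and 8 of 740 with read counts divided by 2. With 1 exon per gene they were 25 and 7 of 196. Tested members lay in 525 genes, so this setting kept no tested member of most of them. Its counts in all 3 comparisons are therefore not counts of 1 member for each gene. The rises were 53 of 740 by the share of inclusion reads and 15 of 393 with basic-tag transcripts only. They were 19 of 645 without exons that hold a transcript start, an alternative chosen after seeing the data. The median difference of −0.02 became −0.01 with at least 50 reads. In siSNRPB against siCtrl, 58 of 462 tested exons fell and 22 rose. The falls were 90 of 644 with at least 10 reads and 38 of 256 with basic-tag transcripts. Of 462, they were 31 with a difference of at least 0.2 and 98 by the share of inclusion reads. With at least 50 reads, 25 of 239 fell and 9 rose. With read counts divided by 2, 17 of 462 fell and 11 rose. With 1 exon per gene 16 of 133 fell and 5 rose, while tested members lay in 337 genes. The rises were 34 of 462 by the share of inclusion reads and 11 of 256 with basic-tag transcripts. The median difference of −0.01 became −0.0312 by the share of inclusion reads and −0.02 with at least 10 reads. Between siSNRPA1 and siSNRPB, 35 of 525 tested exons were lower and 41 higher. With at least 50 reads these were 18 and 14 of 268, and with read counts divided by 2, 7 and 11 of 525. With reads thinned to the smaller pool they were 22 and 24 of 403. With 1 exon per gene they were 12 and 16 of 155, while tested members lay in 389 genes. The exons higher in siSNRPA1 were 24 of 525 with a difference of at least 0.2 and 26 of 290 with basic-tag transcripts. By the share of inclusion reads they were 80 of 525, and the median of 0 became 0.0126 by that share. The authors' Bayes factor of at least 10 in place of the exact test gave 84 falls and 27 rises in siSNRPA1 and 48 and 25 in siSNRPB. These were partly other exons. Of the calls by the exact test, 64 of 85 falls and 20 of 29 rises were kept in siSNRPA1, and 42 of 58 and 16 of 22 in siSNRPB.

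Of 78 passing results of single named exons, 49 no longer passed with read counts divided by 2 and 11 with a difference of at least 0.2. By the Bayes factor 7 no longer passed, with thinned reads 5 and by the share of inclusion reads 1. Results whose exon was no longer tested under an alternative, as some were with thinned reads, are not counted as lost. The Bayes factor exists only for comparisons with siCtrl, so these losses are not all out of 78. Under alternatives, 7 of 1233 values changed sign, all by the share of inclusion reads and none of a result that passed. One of them passed by that share: the 101-nt SEPT2 exon differed between siSNRPA1 and siCtrl by −0.01 in inclusion level and by 0.198 in the share of inclusion reads. The AURKA 195-nt exon differed there by 0.07 in level and −0.0524 in share, and the EVA1A 88-nt exon between siSNRPA1 and siSNRPB by −0.04 and 0.108. The causes of these shifts were not tested, beyond the fewer exons or reads that some alternatives keep.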

Other observations

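Of the named exons that passed by the exact test, 7 results had an authors' Bayes factor under 10. These were the falls in siSNRPA1 of the AURKA 98-nt exon (2.25), DAB2 (8.97), FRYL (5.77) and MRPL55 (6.28), and in siSNRPB the falls of the DAG1 120-nt exon (0.52) and ZNF417 (7.74) and the rise of INPP1 (0.66). Conversely, the tested named exons that did not pass but had a Bayes factor over 10 were, in siSNRPB, the AURKA 98-nt exon (116), FAM210A (18.2) and the 188-nt and 89-nt forms of the PTK2 exon (1e+12 and 2693), and in siSNRPA1 RAB9A (18.4), ZNF417 (10.4) and HMGA1 (1e+12, with a level difference of −0.05).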
